A study of Mus musculus with 6 samples.

Results

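The 9 genes described here encode the stress transcription factors ATF4, ATF3, ATF5 and CHOP (gene Ddit3) and the regulators and effectors that they switch on: Trib3, Nupr1, Chac1, Asns and Ppp1r15a. They were taken by gene symbol from the deposited count table, in which all 9 of 9 symbols were found among 45527 named genes, and all 9 passed the filter on low counts that left 16252 genes for testing. RNA was sequenced from satellite cells, which express Pax7 and are the stem cells of muscle fibres. They were sorted by flow cytometry from lower hindlimbs of mice 24 h after an injection of 30 µl of cardiotoxin, a snake venom toxin that destroys those fibres. The 3 libraries labelled Paxbp1-iKO came from Pax7creER:Paxbp1flox/flox:R26R-YFP mice, in which both alleles of Paxbp1 are floxed, and the 3 control libraries from Pax7creER:Paxbp1flox/+:R26R-YFP mice, in which a single allele is floxed. Mice of both groups therefore carried a Cre recombinase that works only in Pax7-expressing cells and is active only in the presence of an inducing drug, and a yellow fluorescent reporter that Cre switches on and by which the cells were sorted. Controls also carry a floxed allele, so they need not be equal to wild type. Neither the age and sex of the mice nor the schedule of Cre induction is given in the labels. They also leave unsaid which animals each library came from, and p-values therefore describe the spread of these libraries only.

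ATF4 is the transcription factor at the centre of the integrated stress response. Kinases that sense amino acid shortage, unfolded protein in the endoplasmic reticulum (ER), double-stranded RNA or haem and mitochondrial trouble phosphorylate the initiation factor eIF2, which lowers protein synthesis in general while short upstream reading frames in the Atf4 mRNA allow more ATF4 protein to be made. ATF4 protein then raises the genes of amino acid synthesis and transport, tRNA charging and a set of further regulators. Because this control acts largely on translation, the mRNA of Atf4 is only part of its regulation, and ATF4 protein was not measured here. In satellite cells, phosphorylation of eIF2 is known to be part of how quiescence is kept.

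The members did not move together. Nupr1, Ddit3 and Ppp1r15a rose in the iKO-labelled libraries, Chac1 and Trib3 fell, and Atf4, Atf3, Atf5 and Asns did not pass the test. Of the 9 members, 3 were called higher and 2 lower at a Benjamini-Hochberg adjusted p under 0.05 in edgeR's quasi-likelihood test, and 4 were not called. Among all tested genes 8.15% were called higher and 12.3% lower, 20.4% in all. The members were chosen with earlier results of these data known, so this contrast is a description. The median log2 fold change of the members was 0.36, against 0.02 over all tested genes. No iKO-labelled library overlapped a control for 8 of the 9 members, as was so for 39.8% of all tested genes. Fold changes are log2 of iKO-labelled over control with their standard error (SE). Levels are CPM (counts scaled to a common library size) with TMM factors, given as mean ± SD with n = 3 in each group. The TMM factors themselves differed by group, at 1.03 to 1.06 in iKO-labelled libraries and 0.953 to 0.958 in controls. By library totals without these factors, Atf4, Atf3, Atf5 and Asns were also called higher (edgeR adjusted p = 0.0161 to 0.0311).

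The libraries held 23299344 to 28016271 reads on named genes in the iKO-labelled group and 23483305 to 27277555 in the controls, and the members with the fewest reads were Trib3 with 897 in an iKO-labelled library and Ddit3 with 523 in a control. Pairs of libraries of the same group correlated at 0.933 to 0.957 in log2 CPM across the tested genes, which are not independent replicates, and pairs from different groups at 0.902 to 0.924. The mRNA of the targeted gene, Paxbp1, was higher in the iKO-labelled libraries (110.2 ± 15.4 CPM) than in the controls (68.6 ± 6.81 CPM), with a log2 fold change of 0.68 ± 0.13 (edgeR adjusted p = 0.00954). That direction is opposite to the one a knockout label implies. Whether labels or columns were exchanged was not tested, and an exchange would turn the sign of every fold change given here. Reads were summed over the whole gene, so these values do not show whether the floxed part was deleted, and Paxbp1 overlaps 4930404I05Rik on the opposite strand by 2707 bases. The term "iKO-labelled" is used for the libraries labelled Paxbp1-iKO. Satellite cell markers were present in every library. The 10 markers summed to 12115 to 12699 CPM in iKO-labelled libraries and 9623 to 10137 CPM in controls. Sdc4 had the largest share, with means of 6087 CPM in iKO-labelled libraries and 3911 CPM in controls. Of these markers 5 were called higher and 3 lower (Myf5, Itga7 and Des). Pax7 itself was at 49.5 ± 1.7 CPM in iKO-labelled libraries and 11.3 ± 2.14 CPM in controls (2.13 ± 0.17, edgeR adjusted p = 2.2e-04). Chodl was at 925 ± 163 CPM in iKO-labelled libraries and 162 ± 17.8 CPM in controls. The 6 fibro-adipogenic markers summed to 581 to 702 CPM in iKO-labelled libraries and 554 to 718 CPM in controls, and the 6 macrophage markers to 102 to 200.1 CPM in iKO-labelled libraries and 119 to 187 CPM in controls. The 5 endothelial markers summed to 114 to 138 CPM in iKO-labelled libraries and 59.6 to 236 CPM in controls, and the 4 mural markers to 58.3 to 88.6 CPM in iKO-labelled libraries and 31.2 to 119 CPM in controls. Control 1 held the highest endothelial and mural sums, and 24334 genes were detected in it, against 20508 and 20393 in controls 2 and 3. The iKO-labelled libraries had 22964 to 25433. Schwann cell and neutrophil markers were below 30 CPM in each library. None of the markers tested for these 6 other cell types was called. The 5 myofibre markers summed to 8.86 to 15.7 CPM in iKO-labelled libraries and 14.1 to 54.5 CPM in controls, with 1 of them, Acta1, called lower (edgeR adjusted p = 0.0379). Acta1 was not called once control 1, control 2 or any iKO-labelled library was removed (adjusted p up to 0.135). The part of these other cells in the results below was not tested. In sorted bulk cells, fewer cells that express a gene and less RNA per cell cannot be told apart.

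The promoter windows of the members are given first, since a short DNA element is common to members that rose, fell or did not pass the test. ATF4 binds DNA together with a C/EBP family partner at the C/EBP-ATF response element, whose core was searched here as TGATGNAA on both strands, in windows from 250 bases before to 50 bases after each annotated start (RefSeq, GRCm38.p6). All 9 members matched a window, Atf5 with 2 starts, and 5 of the 9 held the core. It was found in 3.97% of all 32841 promoter windows. The members were chosen as genes of the ATF4 and CHOP response, so this contrast is no test of the element. Elements outside the 300 bases of a window were not searched. The stretches of 30 bases around each match run 5′ to 3′ on the strand of the gene, with the core or its reverse complement in capitals:
Nupr1: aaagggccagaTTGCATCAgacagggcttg
Chac1: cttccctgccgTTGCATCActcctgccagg
Atf3: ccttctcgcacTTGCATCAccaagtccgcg
Asns: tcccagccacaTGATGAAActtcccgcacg
Trib3: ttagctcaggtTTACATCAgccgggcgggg
These lie at chr7:126625562-126625591 (minus strand, Nupr1), chr2:119351038-119351067 (plus strand, Chac1), chr1:191183425-191183454 (minus strand, Atf3), chr6:7693214-7693243 (minus strand, Asns) and chr2:152344028-152344057 (minus strand, Trib3). The capitals of Nupr1, Chac1 and Atf3 read TGATGCAA on the opposite strand, those of Trib3 TGATGTAA, and those of Asns TGATGAAA on the strand of the gene. The match began 110 bases before the start in Nupr1 and Atf3, 193 bases before it in Chac1, 23 bases before it in Asns, and at base 15 of the transcript in Trib3. In the GENCODE M21 annotation, which places some starts elsewhere, the stretches of Nupr1, Atf3 and Asns lie within the span of the gene. That of Trib3 does so in part, and that of Chac1 lies before the gene. The same 8 letters stood in a RefSeq window of a gene that rose (Nupr1), a gene that fell (Chac1) and a gene that was not called (Atf3). Whether the element had a part in these directions was not tested. Of 298 tested genes whose window held the core, 7.72% were called higher and 14.8% lower, with a median log2 fold change of -0.01, beside 9.01% and 14.1% and a median of -0.01 over the 10681 tested genes with a window. Other elements were each found in the window of a single member. The cyclic AMP response element TGACGTCA, which occurred in 1.79% of windows, began 12 bases before the start of Ppp1r15a, and the AP-1 site TGANTCA, which occurred in 7.81%, began 242 bases before that of Ddit3. The full ER stress element, found in 0.119% of windows, was in the window of none of the members. A match of letters is a description and does not show that a factor was bound.

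Of the 4 transcription factors, Atf4 had the highest FPKM. Atf4 (ENSMUSG00000042406.8, plus strand of chromosome 15, 80255184 to 80257541 in GRCm38, 3 exons) stood at 739, 691 and 648 CPM in iKO-labelled libraries 1 to 3, against 605, 639 and 626 CPM in controls 1 to 3. The groups lay close without overlapping, since the lowest iKO-labelled library lay just above the highest control. The difference of 0.15 ± 0.07 was not called by edgeR's quasi-likelihood test (adjusted p = 0.164). By upper-quartile scaling, by library totals or with only genes of at least 5 CPM in 3 libraries it was called at 0.22 to 0.29 (adjusted p = 0.0161 to 0.0357). Under library totals the median log2 fold change over all genes was itself 0.13 higher.

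Atf3 encodes a stress-induced factor of the same bZIP class that binds cyclic AMP response elements and is raised by ATF4, p53 and tissue injury. Atf3 (chromosome 1, 191170296 to 191218039, minus strand) had 174, 209 and 202 CPM in iKO-labelled libraries and 153, 178 and 154 CPM in controls. It was the only member whose groups overlapped, with iKO-labelled library 1 below control 2, and the difference of 0.27 ± 0.10 was not called (adjusted p = 0.107). Atf5, whose mRNA is controlled by upstream reading frames as that of Atf4 is and whose protein takes part in the mitochondrial stress response, was at 59.7, 59.7 and 66.6 CPM in iKO-labelled libraries, against 50.9, 43.2 and 49.4 CPM in controls. All iKO-labelled libraries were above all controls, and the difference of 0.37 ± 0.12 missed the threshold (adjusted p = 0.0633). DESeq2 called it (0.39, adjusted p = 0.0145), as did 5 other alternatives. The Atf5 gene (chromosome 7, 44812256 to 44816658, minus strand) overlaps genes on the opposite strand by 571 and 272 bases, and reads from these stretches cannot be assigned to a strand.

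Ddit3 encodes CHOP, a C/EBP-related factor that is induced under lasting ER or amino acid stress, binds DNA with C/EBP partners and promotes cell death when stress is not relieved. It was counted at 44.2, 32.4 and 37.5 CPM in iKO-labelled libraries and at 23.4, 27.3 and 20.3 CPM in controls. Each iKO-labelled library was above each control, the nearest being iKO-labelled library 2 and control 2. Ddit3 rose by 0.68 ± 0.18 (edgeR adjusted p = 0.0303), a 1.61-fold difference. The call ended without control 1 or 3 or iKO-labelled library 1 or 3 (adjusted p up to 0.101) and with GC and length trends removed (0.51, adjusted p = 0.0918), while the direction was kept under all 19 alternatives. GENCODE M21 holds 2 overlapping gene records of this name on chromosome 10. The gene length implied by the deposited FPKM, 1713 bases, equals the exon length of the longer record (ENSMUSG00000025408.15, 127290774 to 127296288, plus strand) and not that of the shorter (105 bases). Ddit3 also overlaps Mars, which fell (-0.49 ± 0.09), by 68 bases on the opposite strand.

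**Figure D1:**
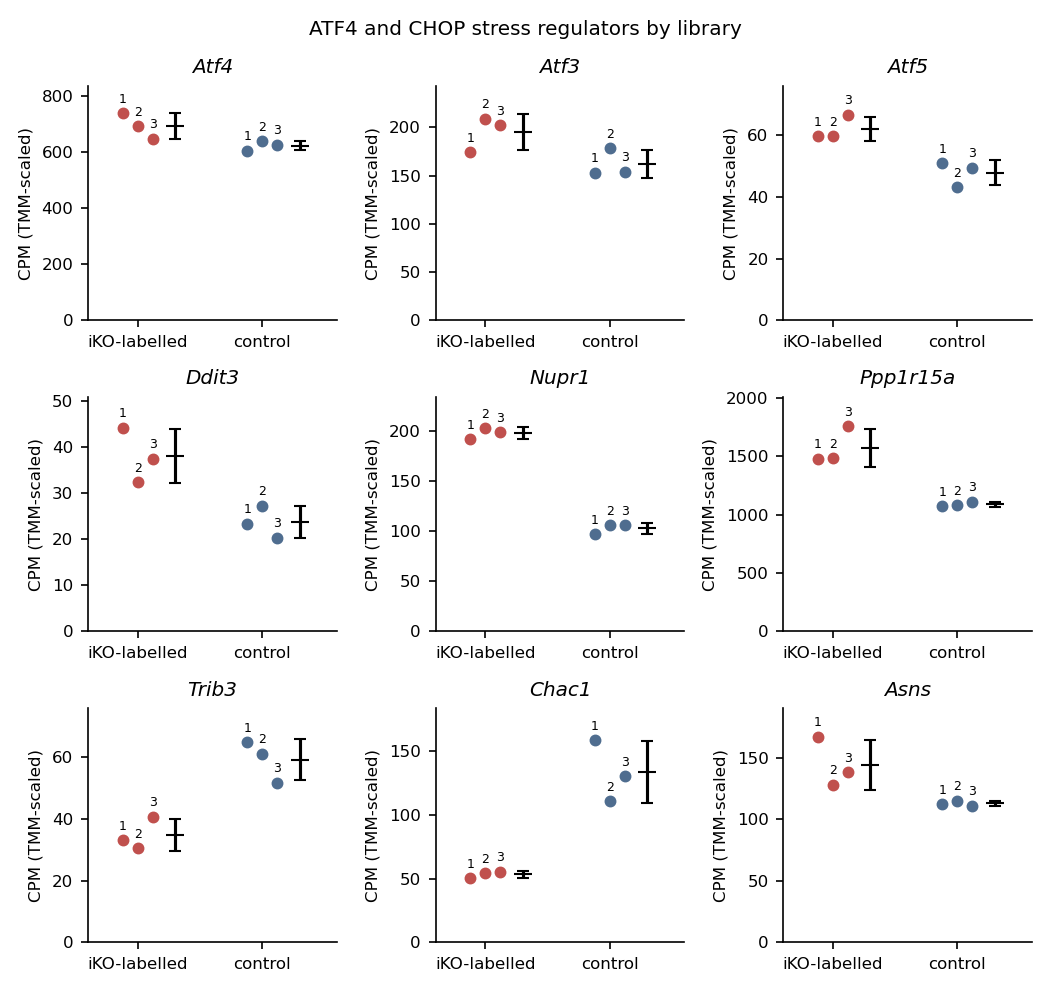
Level of each member in CPM (TMM-scaled, linear axis from 0) in the 3 iKO-labelled (red, left) and 3 control (blue, right) libraries, numbered by replicate, with the mean and its SD drawn beside the points. Nupr1 sits at 192 to 203 CPM in iKO-labelled libraries and at 96.8 to 106 CPM in controls, and Chac1 at 50.6 to 55.5 CPM in iKO-labelled libraries and 111 to 159 CPM in controls.

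Among the regulators downstream of ATF4 and CHOP, Nupr1 had the largest rise with the labels as given. Nupr1 encodes a small stress-induced chromatin protein that takes part in the transcription of stress genes, Trib3 among them, and is known from pancreas and tumour cells. It stood at 192, 203 and 199 CPM in iKO-labelled libraries, against 96.8, 106 and 106 CPM in controls. The groups lay far apart compared with the spread inside each. The log2 fold change was 0.94 ± 0.08 (edgeR adjusted p = 3.0e-04), a 1.92-fold difference, and the call was kept under all 19 alternatives, at 0.88 to 1.08. Nupr1 lies on the minus strand of chromosome 7, from 126623249 to 126630861.

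Ppp1r15a encodes GADD34, the regulatory subunit that brings protein phosphatase 1 to eIF2 and so restores translation after stress. Its FPKM was the highest among the members, and it stood at 1479, 1484 and 1759.8 CPM in iKO-labelled libraries and 1075, 1084 and 1113 CPM in controls. All iKO-labelled libraries were higher, and library 3 stood above the other two. Ppp1r15a rose by 0.53 ± 0.08 (edgeR adjusted p = 0.00276), a 1.44-fold difference, and remained called whichever library was left out. The gene (chromosome 7, 45522916 to 45526268, minus strand) overlaps Tulp2 on the opposite strand by 717 bases. Tulp2 held 159 to 218 reads in iKO-labelled libraries and 41 to 124 in controls, whereas Ppp1r15a held 42210 to 43531 in iKO-labelled libraries and 24041 to 29039 in controls. Its counterpart in the constitutive phosphatase, Ppp1r15b, was at 441 ± 26.3 CPM in iKO-labelled libraries and 385 ± 31 CPM in controls. Ppp1r15b was not called (0.20 ± 0.08, edgeR adjusted p = 0.142). It was called by 3 of 19 alternatives, among them library totals (0.33, adjusted p = 0.0286) and upper-quartile factors (0.28, adjusted p = 0.0456).

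Trib3 and Chac1 went the other way. Trib3 encodes a pseudokinase that is raised by ATF4 and CHOP, holds ATF4 activity back and binds the kinase Akt. It was at 33.2, 30.6 and 40.8 CPM in iKO-labelled libraries, against 65, 61.2 and 51.8 CPM in controls. The highest iKO-labelled library was below the lowest control. Trib3 fell by 0.77 on the log2 scale (SE 0.16, edgeR adjusted p = 0.0114), and it remained called whichever library was left out. Trib3 lies on chromosome 2, from 152337422 to 152344032 on the minus strand.

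Chac1 encodes an enzyme that degrades glutathione and is a known target of ATF4, ATF3 and CHOP. It had 50.6, 54.4 and 55.5 CPM in iKO-labelled libraries and 159, 111 and 130.4 CPM in controls. The iKO-labelled libraries were close to each other, while the controls were spread. Its log2 fold change of -1.32 ± 0.14 (edgeR adjusted p = 6.8e-04) was the largest in size among the members and lay below that of all but 4.74% of tested genes. It was called under all 19 alternatives, at -1.43 to -1.18. Chac1 (chromosome 2, 119351229 to 119354381, plus strand) has 3 exons.

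Asns encodes asparagine synthetase, a much studied target of ATF4 that makes asparagine from aspartate. It was at 167, 128 and 138 CPM in iKO-labelled libraries and 112, 115 and 111 CPM in controls. The controls lay within a few CPM of each other and all iKO-labelled libraries were above them, with library 1 highest. The difference of 0.36 ± 0.11 missed the threshold (edgeR adjusted p = 0.0594), and 8 of 19 alternatives called it, among them DESeq2 (adjusted p = 0.0159) and RLE scaling (adjusted p = 0.0498). Asns spans 7675169 to 7693254 on the minus strand of chromosome 6, with 12 exons.

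**Figure D2:**
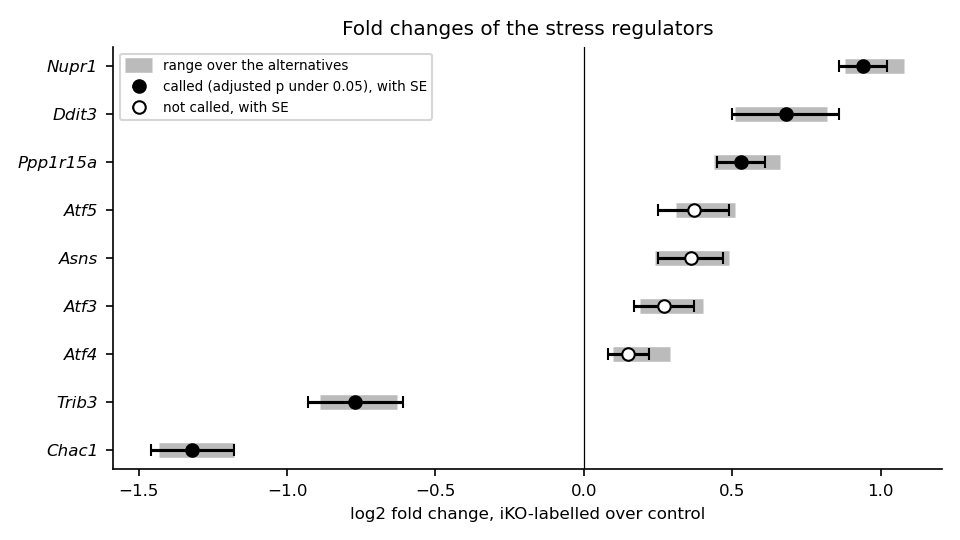
Log2 fold change of each member, iKO-labelled over control, with its standard error, where filled points were called at an adjusted p under 0.05 by edgeR's quasi-likelihood test and open points were not. Grey bars give the range over the 19 alternatives, none of which crosses 0; Nupr1 is at 0.94 and Chac1 at -1.32.

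Library scaling does not enter a ratio of 2 genes within a library. The ratio of Ddit3 to Trib3 reads was 1.33, 1.06 and 0.919 in iKO-labelled libraries, against 0.36, 0.447 and 0.392 in controls. The ratio of Nupr1 to Chac1 reads was 3.79, 3.73 and 3.58 in iKO-labelled libraries and 0.607, 0.953 and 0.81 in controls. Neither ratio overlapped between the groups, which follows from the choice of pairs called in opposite directions, and the ratios are given as a description. The ratio of Asns to Chac1 reads, 2 genes whose windows both held the core, was 2.35 to 3.3 in iKO-labelled libraries and 0.702 to 1.03 in controls. Relative to Atf4 itself, Chac1 reads came to 6.85%, 7.87% and 8.56% in iKO-labelled libraries and to 26.3%, 17.5% and 20.8% in controls. Nupr1 reads came to 26%, 29.4% and 30.6% of those of Atf4 in iKO-labelled libraries, against 16%, 16.6% and 16.9% in controls. For Atf3 this share overlapped between the groups, at 23.6% to 31.1% in iKO-labelled libraries and 24.6% to 27.9% in controls.

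**Figure D3:**
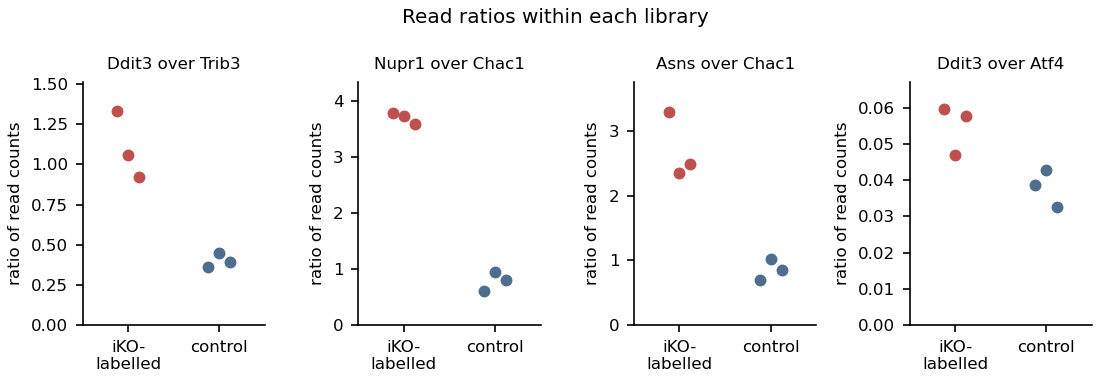
Ratio of the read counts of 2 members within each library (linear axes from 0; Ddit3 over Trib3, Nupr1 over Chac1, Asns over Chac1 and Ddit3 over Atf4), for the 3 iKO-labelled (red, left) and 3 control (blue, right) libraries. The Nupr1 to Chac1 ratio is 3.58 to 3.79 in iKO-labelled libraries and 0.607 to 0.953 in controls.

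Levels of different genes can be set side by side only per length, for which the deposited FPKM was used. The FPKM of Atf4 implies a gene length of 1724 bases, shorter than the 2358 bases of its exons in GENCODE M21, and with the longer length it would be lower. In the iKO-labelled libraries the order was Ppp1r15a (529 ± 53.6 FPKM), Atf4 (397 ± 26.3), Atf3 (89.4 ± 8.34), Nupr1 (77.7 ± 2.14), Asns (52.1 ± 7.36), Chac1 (32.3 ± 1.51), Atf5 (30.7 ± 1.96), Ddit3 (21.9 ± 3.43) and Trib3 (16.2 ± 2.45). In the controls it was Ppp1r15a (362 ± 9.74 FPKM), Atf4 (353 ± 12.8), Chac1 (79.6 ± 13.6), Atf3 (73.4 ± 6.79), Asns (40.2 ± 0.908), Nupr1 (39.9 ± 2.45), Trib3 (27.2 ± 2.89), Atf5 (23.4 ± 1.88) and Ddit3 (13.5 ± 2.01), with n = 3 in each group. In the iKO-labelled libraries the pairs Chac1 and Atf5 and Ddit3 and Trib3 overlapped in their single libraries. In the controls Ppp1r15a and Atf4, Chac1 and Atf3, Asns and Nupr1, and Trib3 and Atf5 overlapped. Ppp1r15a and Atf4 were above 99.4% and 99.2% of tested genes by mean FPKM, and Ddit3, the lowest by this measure, above 80.1%.

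Genes whose pattern over the 6 libraries was most like that of Atf4 or Ddit3 were sought among the 8631 other tested genes whose log2 CPM averaged 3 or more and whose symbol is not that of a predicted gene model, by the root mean square difference of log2 CPM after each gene's mean was taken off. For Atf4 they were Ptpn2, a tyrosine phosphatase (0.0208), Magoh, a subunit of the exon junction complex (0.0227), and Tuba1c, an alpha tubulin (0.0234). For Ddit3 they were Bcl2l1, which encodes the survival protein Bcl-xL (0.0719), Cecr2 (0.0747) and Ccdc163 (0.0864). Between members, Atf4 was nearest to Asns (0.131), Atf5 to Ppp1r15a (0.108), and Trib3 to Chac1 (0.326), while Nupr1 and Chac1 were farthest apart (1.14). The members share their libraries and the group difference, so these distances are a description.

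The other reported targets of ATF4 and CHOP were also split. Of 16 listed, 15 were tested, 4 rose and 5 fell, with a median log2 fold change of -0.07 (8.15% and 12.3% of all genes). This list and the lists below were chosen with earlier results of these data known. Their shares beside those of all genes are therefore a description and no test. Those that rose were Ddit4, also called Redd1, and Sesn2, both brakes on mTORC1, Tnfrsf10b, a death receptor, and Bbc3, the BH3-only protein Puma. Ddit4 was at 112 ± 11.4 CPM in iKO-labelled libraries and 52.7 ± 2.48 CPM in controls (1.09 ± 0.11, edgeR adjusted p = 5.7e-04), and Tnfrsf10b at 40.7 ± 2.62 CPM in iKO-labelled libraries and 14.6 ± 1.65 CPM in controls (1.48 ± 0.15). Sesn2 was at 476 ± 36.9 CPM in iKO-labelled libraries and 285 ± 31.5 CPM in controls (0.74 ± 0.10, edgeR adjusted p = 0.00207). Bbc3 rose by 0.96 ± 0.27, a call that ended without control 1 or 3 or iKO-labelled library 1 or 3 (adjusted p up to 0.135). Sesn2, Ddit4, Tnfrsf10b and Bbc3 are known targets of p53 as well as of the stress response, and the part of either in these rises was not tested. Those that fell were Eif4ebp1, which encodes the translation repressor 4E-BP1 (-0.64 ± 0.07), Ero1l, the oxidase of ER disulphide formation (-0.88 ± 0.13), Herpud1, of ER-associated degradation (-0.46 ± 0.09), Fgf21, a secreted stress hormone, and Sqstm1, the autophagy receptor p62 (-0.23 ± 0.05). Fgf21 was at 1.52 ± 0.311 CPM in iKO-labelled libraries and 6.39 ± 1.82 CPM in controls (-2.07 ± 0.38, edgeR adjusted p = 0.00768). The call of Sqstm1 was lost under 11 of 19 alternatives. It ended without control 2 or 3 or iKO-labelled library 2 or 3 (edgeR adjusted p up to 0.0744). It also ended by upper-quartile factors (edgeR adjusted p = 0.0686) and by library totals (edgeR adjusted p = 0.201).

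Genes of amino acid synthesis and transport that ATF4 is known to raise had falls and no rises. The list has 22 tested genes, of which 13 fell and 0 rose, where 12.3% of all tested genes fell and 8.15% rose. Its median log2 fold change was -0.74, against 0.02 over all tested genes. This list too was chosen with earlier results of these data known. Psat1, of serine synthesis, was at 137 ± 13.3 CPM in iKO-labelled libraries and 341 ± 38.5 CPM in controls (-1.31 ± 0.11, edgeR adjusted p = 2.6e-04). Phgdh, which makes the committed step of that pathway, was at 161 ± 22.2 CPM in iKO-labelled libraries and 340.3 ± 14.4 CPM in controls (-1.08 ± 0.11). Slc7a5, the transporter of large neutral amino acids, fell by 0.94 on the log2 scale (SE 0.10), and Shmt2, the mitochondrial enzyme that passes serine carbon to folate, by 0.72 (SE 0.11). The partner of Slc7a5, Slc3a2 (-0.05 ± 0.08, adjusted p = 0.719), and the glutamine transporter Slc38a2 (-0.05 ± 0.07, adjusted p = 0.715) were not called, with means of 1484 and 1342 CPM in iKO-labelled libraries and of 1535 and 1386 CPM in controls. Over the libraries left out in turn the list held 9 to 12 falls and 0 rises. Asns, the amino acid enzyme among the members, thus had a log2 fold change of 0.36 while 21 of these 22 enzymes and transporters had one below 0, though Slc3a2 and Slc38a2 were both at 0.09 by library totals.

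The cytosolic aminoacyl-tRNA synthetases charge tRNAs with amino acids, and ATF4 raises many of them. Falls numbered 14 of 20 tested and rises 0, beside 12.3% and 8.15% over all tested genes, and the median was -0.47. The other 6 were not called, and among them Aars (0.13) and Sars (0.19) had every iKO-labelled library above every control. Gars, for glycine, was at 309 ± 12 CPM in iKO-labelled libraries and 655 ± 35.8 CPM in controls (-1.09 ± 0.07, edgeR adjusted p = 1.1e-04). Eprs, for glutamate and proline (-1.13 ± 0.08), Vars, for valine (-1.09 ± 0.11), and Lars, for leucine (-0.85 ± 0.08), had the next smallest p-values. By library totals Aars (0.26) and Sars (0.32) were called higher, and with GC and length trends removed Aars was at -0.03.

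The chaperones of the ER and genes of the IRE1 and ATF6 arms, the other branches of the unfolded protein response, had 14 of 22 lower and none higher, beside 12.3% and 8.15% of all tested genes, with a median of -0.44. Pdia4, a disulphide isomerase, was at 71.7 ± 10.8 CPM in iKO-labelled libraries and 179 ± 19.7 CPM in controls (-1.32 ± 0.13, edgeR adjusted p = 5.7e-04). Dnajc3, which inhibits the eIF2 kinase of the ER (-1.09 ± 0.09), the co-chaperone Dnajb11 (-0.79 ± 0.07) and the isomerase Pdia6 (-0.73 ± 0.07) fell too. The main ER chaperone Hspa5 (BiP) was at 3354 ± 206 CPM in iKO-labelled libraries and 3723 ± 82.8 CPM in controls and was not called (-0.15 ± 0.06, edgeR adjusted p = 0.102). It was called by 2 of 19 alternatives, among them the fit without iKO-labelled library 3 (-0.20, edgeR adjusted p = 0.0464). By library totals 9 of the 22 were called lower. Falls numbered 6 and rises 0 among 13 genes of mitochondrial stress signalling, chaperones and proteases, beside the same shares of all tested genes, and the median was -0.31. The genes that fell were Trap1 (-1.56 ± 0.10), Afg3l2 (-0.82 ± 0.10), Htra2 (-0.89 ± 0.14), Lonp1 (-0.65 ± 0.12), Hspe1 (-0.23 ± 0.07) and Hspa9 (-0.24 ± 0.06). The call of Hspe1 ended on removal of any 1 of the 6 libraries, with an adjusted p of at most 0.166, and by library totals (-0.10). That of Hspa9 ended on removal of each library other than iKO-labelled library 1 (adjusted p up to 0.0858) and by library totals (adjusted p = 0.187). The relay by which mitochondrial stress reaches eIF2, Oma1 and Dele1, was not called (adjusted p = 0.13 and 0.327).

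**Figure D4:**
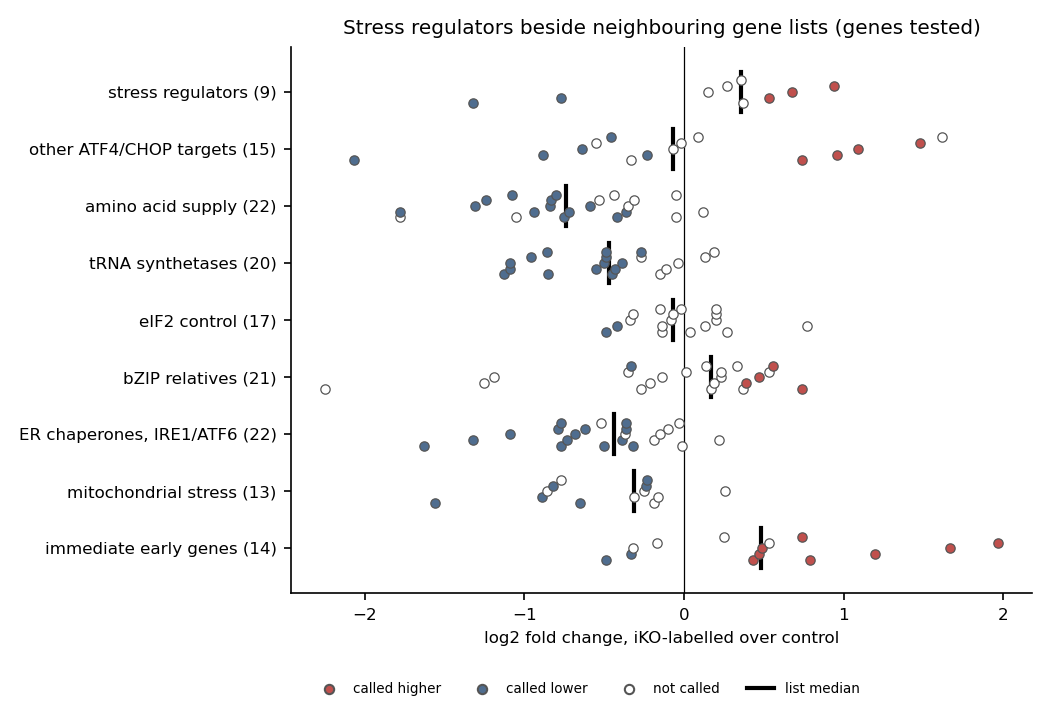
Log2 fold change, iKO-labelled over control, of each tested gene in the members' list and 8 neighbouring lists, with the number tested in brackets, where red points were called higher, blue points lower and open points not called, and black bars are list medians. Medians are 0.36 for the stress regulators, -0.74 for amino acid supply, -0.47 for tRNA synthetases and 0.48 for immediate early genes.

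Upstream of ATF4, 2 of 17 tested genes of eIF2 control fell and 0 rose, beside 12.3% lower and 8.15% higher over all tested genes, so the falls were near the background share. The median was -0.07. Eif2s1, the eIF2 subunit that is phosphorylated, was at 423 ± 23.6 CPM in iKO-labelled libraries and 565 ± 36 CPM in controls (-0.42 ± 0.08, edgeR adjusted p = 0.00716). Eif2b3, of the exchange factor eIF2B, fell by 0.49 on the log2 scale (SE 0.10), a call that ended without control 3 (adjusted p = 0.0528). The 4 eIF2 kinases were not called: Eif2ak1 (HRI, -0.14 ± 0.13), Eif2ak2 (PKR, 0.77 ± 0.43), Eif2ak3 (PERK, 0.20 ± 0.22) and Eif2ak4 (GCN2, 0.27 ± 0.16). These kinases act by phosphorylation, which RNA counts do not measure.

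Among 21 bZIP relatives and dimer partners 4 rose and 1 fell, beside 8.15% and 12.3% of all tested genes, with a median of 0.17. Cebpg, a partner of ATF4 at the response element, was at 61.4 ± 1.91 CPM in iKO-labelled libraries and 41.7 ± 3.36 CPM in controls (0.56 ± 0.12, edgeR adjusted p = 0.0123), a call that ended without iKO-labelled library 2 (adjusted p = 0.0534). Cebpa rose by 0.74 ± 0.15 and Junb by 0.47 ± 0.11, and Jun fell by 0.33 on the log2 scale (SE 0.07). The call of Junb ended without control 3 (adjusted p = 0.0525), and that of Jun without iKO-labelled library 2 (adjusted p = 0.0557) and by library totals (adjusted p = 0.0767). Atf2 rose by 0.39 ± 0.11 and lost its call with any library removed (adjusted p at most 0.124). The rises of this list numbered 7 with DESeq2 and 2 without control 3 or without iKO-labelled library 2.

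Atf3 and Ppp1r15a are also known as immediate early genes, which are induced within minutes by stimulation and by the dissociation of tissue. Of 14 other immediate early and heat shock genes, of which Fos, Jun and Junb were also counted among the bZIP relatives, 8 rose and 2 fell, beside 8.15% and 12.3% of all tested genes, so that the falls were near the background share. The median was 0.48. Hspa1a, the inducible Hsp70, was at 579.6 ± 39 CPM in iKO-labelled libraries and 147 ± 32.6 CPM in controls (1.97 ± 0.15, edgeR adjusted p = 2.0e-04). Socs3, which restrains cytokine signalling (1.20 ± 0.12), the antiproliferative Btg2 (0.79 ± 0.12) and Zfp36, which marks mRNAs for decay (0.74 ± 0.07), rose too. Fos was at 884 ± 123 CPM in iKO-labelled libraries and 612 ± 185 CPM in controls and was not called (0.53 ± 0.20, adjusted p = 0.1). It was called by 9 of 19 alternatives, among them the fit without control 1 (0.81, adjusted p = 0.00538) and DESeq2 (adjusted p = 0.0115). Egr1 was at 1151 ± 18.7 CPM in iKO-labelled libraries and 1436 ± 436 CPM in controls (-0.32 ± 0.18, adjusted p = 0.27). The summed level of the list was 9857, 9106 and 9139 CPM in iKO-labelled libraries and 9024, 6995 and 6962 CPM in controls. Control 1 was near the iKO-labelled libraries in this sum, to which Egr1 added 1935 CPM in control 1. For 8 of the 14 genes every control lay below every iKO-labelled library, as for 18.9% of all tested genes. Ppp1r15a was at 1075, 1084 and 1113 CPM in controls 1 to 3. Whether immediate early induction had a part in the rise of Ppp1r15a was not tested.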

How the data were processed

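RNA from sorted satellite cells was amplified with Smart-Seq2 and made into libraries with a NuGEN kit, per the labels' protocols. The authors deposited raw read counts per gene and FPKM values. The build mm10 and the tools STAR, Trim Galore, Subread's featureCounts and DESeq2 appear, with no version, in the submitters' processing notes. Annotation release and strand setting are not stated there. The deposited FPKM follow the counts divided by median-of-ratios size factors in place of library totals.

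Of 46078 rows, 551 held no gene name (0.108% to 0.123% of reads) and were left out. The filter on low counts was filterByExpr, with 10 as minimum count and 15 as minimum total. The 3 iKO-labelled and 3 control libraries were compared with edgeR 4.0.16 (R 4.3.3), with TMM factors, quasi-likelihood F-tests and Benjamini-Hochberg adjustment over 16252 genes, called under 0.05. SE is the log2 fold change divided by the square root of F. The script was tested on simulated data. Alternatives were other scalings and filters, a test against a 1.5-fold change, a replicate block, DESeq2 1.42.0, limma 3.58.1 (voom, and log2 of FPKM plus 1 or 0.1), each library left out, and removal of GC and length trends, the last chosen after the data were seen.

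The members and the neighbouring lists were chosen with earlier results of these data known. Each list names up to 4 genes of smallest adjusted p, and the genes most like Atf4 and Ddit3 were sought as described with them. All further list genes given by name were picked after their values were seen. Gene positions are from GENCODE M21 (GRCm38), promoter windows from RefSeq (GRCm38.p6).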

Additional observations from a re-analysis of the deposited data

How the results depend on the processing

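Over 19 alternatives the log2 fold change of each of the 9 members kept its sign, and Nupr1 and Chac1 were called in all 19. The 3 members called higher became 4 by RLE factors or without a count filter. They became 6 by upper-quartile factors, 7 by library totals, 7 with a 5 CPM filter, 5 with DESeq2, 5 by limma on log2(FPKM + 1), 5 with 0.1 in place of 1, and 1 against a 1.5-fold change or on unfiltered FPKM. The 2 called lower became 1 against a 1.5-fold change and 1 on unfiltered FPKM. Leaving out each library gave 2 to 3 members higher and 2 to 2 lower. The genes called higher numbered 1324 and the genes called lower 1991. Against a 1.5-fold change these were 322 and 495, on unfiltered FPKM 537 and 864, with DESeq2 2100 higher, and over the libraries left out 706 to 1159 and 1347 to 1657. Library totals gave 1921 higher and 1440 lower. The largest number of genes called lower over the alternatives was 2466.

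Samples with the same replicate number did not deviate together (correlations of deviations over genes -0.0668, -0.00212 and -0.0593, and 0 of 3 numbers fitted best with their own), so the numbers were not taken to pair libraries. With the replicate block, members called higher numbered 2 and members called lower 2, genes called higher 813 and genes called lower 1402, and the adjusted p of Ddit3 was 0.0728. Of 77 genes examined by name, over 1460 combinations with an alternative, 145 lost a call, 43 gained one and 11 turned sign, none of these last a called value. Those were Ptpn2 (-0.04), Magoh (-0.14) and Aars (-0.03) with GC and length trends removed, for which 95.1% of tested genes had values, and Slc3a2 and Slc38a2 by upper-quartile factors (both 0.03), library totals (both 0.09) and a 5 CPM filter (both 0.02), and with a library left out, at -0.10 to 0.01 for Slc3a2 (positive without control 1) and -0.11 to 0.00 for Slc38a2 (without iKO-labelled library 3). For these, and for the calls that moved, the cause was not tested. The members were counted with 523 to 43531 reads in each library, and transcript counts do not measure protein or phosphorylation.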
